A study of Homo sapiens with 6 samples.

Results

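NF-kB is a family of dimeric transcription factors built from the subunits encoded by NFKB1, NFKB2, RELA, RELB and REL. Inhibitor proteins of the IkB family, such as those encoded by NFKBIA and NFKBIE, hold the dimers in the cytoplasm until signals from cytokine receptors lead to their phosphorylation and destruction. The dimers then activate genes that include their own inhibitors and the ubiquitin-editing enzyme gene TNFAIP3, so the pathway limits itself by feedback, and in liver cells it is known for inducing chemokines, adhesion molecules and survival genes. The genes described here are NFKB1, NFKB2, RELA, RELB, NFKBIA, NFKBIE, TNFAIP3, BIRC3, ICAM1 and IL32. They were chosen by gene name, 1 entry each, and all 10 were found among 27394 gene names. Members were not picked by a cut-off on their values, but the set was proposed with earlier results of these data known.

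The libraries came from Huh7, a human hepatocellular carcinoma line, grown in medium with fetal bovine serum. Of 6 RNA-seq libraries, 3 came from cells carrying an shRNA (short hairpin RNA) against CTSV and 3 from cells carrying a control shRNA, labelled WT. CTSV encodes the lysosomal protease cathepsin V. The labels do not state how many shRNAs were used, their sequences, or whether the cells were a clone or a pool. They also do not say whether the 3 libraries per condition were separate cultures, so every p-value reflects library-to-library spread that may be purely technical.

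CTSV itself was at 16.9 ± 1.31 CPM in CTSV shRNA libraries and 42.6 ± 1.79 CPM in control libraries (CPM being TMM-normalised counts scaled to library size; mean ± SD, n = 3 each), and no library went against its label. Library totals lay between 16280506 and 18106207 counts. The groups stood on opposite sides of the first principal component, which took 50.5% of the variance, and mitochondrial genes took 11.4% to 11.8% of counts in CTSV shRNA libraries against 9.09% to 9.51% in control libraries. Of 9 hepatocyte and Huh7 markers, all 9 were measured, and their summed level was 39920 to 40950 CPM in CTSV shRNA libraries and 32410 to 33200 CPM in control libraries. Of 9 leukocyte and Kupffer cell markers, 5 were measured, with summed levels of 57.1 to 62.8 CPM and 76.6 to 85.1 CPM. Nearly all of that sum was the lysozyme gene LYZ, at 57.1 ± 2.80 CPM in CTSV shRNA libraries and 76.3 ± 4.16 CPM in control libraries (n = 3 each). The T cell gene CD3E had between 0 and 7 counts in any library. CD3D, also a T cell gene, had 11 to 25 counts, at 0.704 ± 0.0722 CPM in CTSV shRNA libraries and 1.27 ± 0.319 CPM in control libraries (n = 3 each). The monocyte gene CD14 had 31 to 52 counts. Summed levels of endothelial markers (1 of 5 measured) were 17.3 to 19.2 and 16.6 to 21.7 CPM, those of stellate cell markers (3 of 6) 3.52 to 6.06 and 3.61 to 5.67 CPM, and those of cholangiocyte markers (3 of 4) 168.9 to 183.5 and 171.9 to 188.8 CPM, in CTSV shRNA and control libraries in each case. Within the cholangiocyte sum, EPCAM, an epithelial adhesion gene, was at 21.7 ± 2.48 CPM in CTSV shRNA libraries and 10.2 ± 1.35 CPM in control libraries (n = 3 each) and rose by 1.08 on the log2 scale, while the transcription factor gene SOX9 fell by 0.17. The part of these shifts in the results below was not tested.

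**Figure D1:**
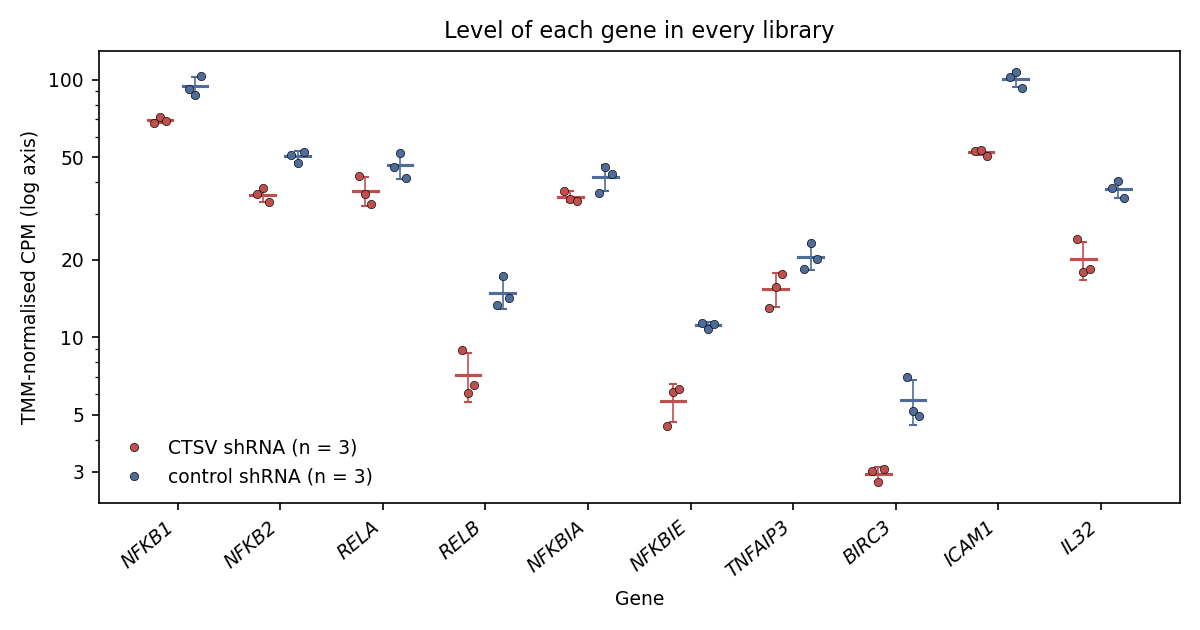
TMM-normalised CPM (log axis) of the 10 genes in each library, CTSV shRNA libraries in red and control libraries in blue. Points are libraries, horizontal lines are means and bars are SDs (n = 3 each). The groups do not overlap for 8 genes and overlap for RELA and NFKBIA.

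All 10 genes fell in CTSV shRNA cells, with log2 fold changes (CTSV shRNA over control shRNA) from -0.25 for NFKBIA to -1.06 for RELB. Among all 15968 genes tested with edgeR's quasi-likelihood test, 40.3% changed (21.6% fell and 18.7% rose; of protein-coding genes, 26.2% fell) at a Benjamini-Hochberg adjusted p under 0.05. The median log2 fold change of the 10 was -0.70, beside 0.02 for all genes tested and -0.03 for protein-coding genes. Every CTSV shRNA library lay below every control library for 8 of the 10 genes, as it did for 25.0% of all genes tested. In bulk libraries a fall in RNA per cell and a loss of cells that carry it cannot be told apart. With a 1.2-fold limit placed on the test, 7 of the 10 fell, beside 7.97% of all genes tested, and NFKBIA, RELA and TNFAIP3 did not pass. The authors' deposited table, which gives control over CTSV shRNA, has all 10 higher in the control at an adjusted p under 0.05, with NFKBIA closest to the limit at 0.0492. Of all 27394 names there, 11.6% were higher in the control, a base that includes genes too low to be tested with edgeR. The deposited fold changes for the 10 equal those of DESeq2 run here with the sign turned, so the table is not a separate line of support. In that DESeq2 fit NFKBIA had an adjusted p of 0.0507.

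Promoter sequences are shown because several of the 10 genes are textbook NF-kB targets whose promoters carry kB sites, the DNA elements that NF-kB dimers bind. RefSeq promoter windows (GRCh38.p14), from 250 bases before to 50 bases after a gene's start, matched 8 of the 10 genes by symbol, with 13 windows in all; RELB and NFKBIE were not matched. The letters GGNNNTTCC, read as GGAANNNCC on the other strand, are a loose form of the kB site and were chosen after these windows had been read. They were found in 8 of the 13 windows and for 7 of the 8 genes, all but RELA. Of all 35116 windows of that length in the table, 20.1% held them, and genes with several starts had several windows to match. Capitals mark the match in each sequence below, all written 5′ to 3′ along the gene's own strand. The whole window is given for ICAM1 (chr19:10270870-10271169, plus strand) and NFKBIA (chr14:35404700-35404999, minus strand), which hold the same letters GGAAATTCC but stand near opposite ends of the fold changes.
ICAM1: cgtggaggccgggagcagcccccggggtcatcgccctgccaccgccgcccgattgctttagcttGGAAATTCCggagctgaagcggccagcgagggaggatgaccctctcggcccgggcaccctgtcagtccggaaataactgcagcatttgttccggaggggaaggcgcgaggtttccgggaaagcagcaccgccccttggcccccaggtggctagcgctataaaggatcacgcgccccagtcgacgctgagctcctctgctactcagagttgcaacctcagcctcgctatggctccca
NFKBIA: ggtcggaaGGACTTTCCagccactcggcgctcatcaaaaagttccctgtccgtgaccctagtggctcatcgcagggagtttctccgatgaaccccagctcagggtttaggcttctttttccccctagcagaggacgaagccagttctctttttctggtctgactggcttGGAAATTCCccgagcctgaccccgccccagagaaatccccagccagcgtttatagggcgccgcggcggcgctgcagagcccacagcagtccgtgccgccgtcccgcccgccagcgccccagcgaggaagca

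Shorter stretches around the match nearest to a start are enough to compare the other genes. They come from NFKB1 (chr4:102501301-102501329), NFKB2 (chr10:102395675-102395703), TNFAIP3 (chr6:137867194-137867222), BIRC3 (chr11:102317275-102317303) and IL32 (chr16:3065325-3065353), all on the plus strand.
NFKB1: gacgtcagtgGGAATTTCCagccaggaag
NFKB2: ggtattttcgGGACTTTCCtaagctgctc
TNFAIP3: aaagtcccgtGGAAATCCCcgggcctaca
BIRC3: tttgggtcatGGAAATCCCcgagtgggtt
IL32: tcccgagtctGGACTTTCCctctgcccct
Counted from the RefSeq start of each window, the matches shown began at -48 in NFKB1, -20 in NFKB2, -55 in TNFAIP3 and -199 in BIRC3. They began at -186 in ICAM1 and -68 in IL32, and the one nearest to the start in NFKBIA began at -81. RefSeq starts can differ from the gene starts given below. By those gene starts, the matches shown for NFKB2, TNFAIP3, ICAM1 and IL32 lie inside the gene. TNFAIP3 and BIRC3 share the letters GGAAATCCC, and NFKB2, IL32 and a second site of NFKBIA share GGACTTTCC. Matches also stood in promoters of pathway genes that did not fall, with 1 in the window of REL, 1 in each of the 2 windows of NFKBIZ and 1 in 2 of the 3 windows of TRAF1, while the 2 windows of BIRC2 held none. Of other genes scanned that fell, CXCL8 held 1 match in its window and NFKBIB held 2 in 1 of its 2 windows. A match describes letters in a window and does not show that a factor binds there.

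All 4 subunit genes among the 10 fell, to 48.0% of the control level for RELB and to between 71.0% and 79.8% for the others. REL, the subunit gene outside the 10, was not called, at a log2 fold change of 0.19. NFKB1 (ENSG00000109320, chromosome 4, 102501329 to 102617302 on hg38, plus strand) encodes the precursor of the p50 subunit. Its level was 67.7, 71.4 and 69.3 CPM in CTSV shRNA libraries, against 92.0, 87.2 and 103.0 CPM in control libraries. The groups did not overlap, and NFKB1 had a log2 fold change of -0.44 (SE 0.0651, edgeR adjusted p = 1.1e-06). NFKB2 (ENSG00000077150, chromosome 10, 102394110 to 102402529, plus strand) encodes the precursor of p52, the subunit of the non-canonical branch. It was at 36.0, 37.9 and 33.4 CPM in CTSV shRNA libraries, against 51.1, 47.5 and 52.4 CPM in control libraries, again without overlap. Its log2 fold change was -0.49 (SE 0.0808, edgeR adjusted p = 5.27e-06).

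RELA (ENSG00000173039, chromosome 11, 65653596 to 65663094, minus strand) encodes p65, the main activating subunit of the canonical branch. Its level was 42.1, 36.0 and 33.0 CPM in CTSV shRNA libraries and 45.6, 51.9 and 41.6 CPM in control libraries. The highest CTSV shRNA library passed the lowest control library, so the groups overlapped, and the fall was small at -0.33 (SE 0.0910, edgeR adjusted p = 0.00395). RELB (ENSG00000104856, chromosome 19, 45001430 to 45038198, plus strand) encodes the partner of p52 and is itself a known NF-kB target. It was at 8.89, 6.06 and 6.49 CPM in CTSV shRNA libraries, against 13.3, 17.2 and 14.1 CPM in control libraries. Every control library was higher, and RELB had a log2 fold change of -1.06 (SE 0.156, edgeR adjusted p = 8.99e-07), at rank 166 of 15968 from the most negative. It was the most negative of the 10 with all 6 libraries, but BIRC3 passed it with length and GC offsets (-1.01 against -0.99) and without control replicate 2 (-1.02 against -0.95), as did NFKBIE without control replicate 2 (-1.003) and without CTSV shRNA replicate 2 (-1.04 against -0.96) or 3 (-1.06 against -0.99).

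Ratios of counts within a library need no scaling between libraries. RELB stood to RELA at 0.211, 0.168 and 0.197 in CTSV shRNA libraries, against 0.292, 0.331 and 0.340 in control libraries. The ratio was lower in each CTSV shRNA library, a log2 difference of -0.75, with a two-sided exact permutation p of 0.1, the smallest that 3 against 3 libraries can give, and 0.2 after adjustment over the 4 ratios computed. NFKB2 to NFKB1 was 0.531, 0.530 and 0.482 in CTSV shRNA libraries and 0.555, 0.544 and 0.508 in control libraries, which overlapped (log2 difference -0.06, exact permutation p = 0.4, adjusted 0.533). With 3 libraries a group, no difference of any size could pass this test.

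**Figure D2:**
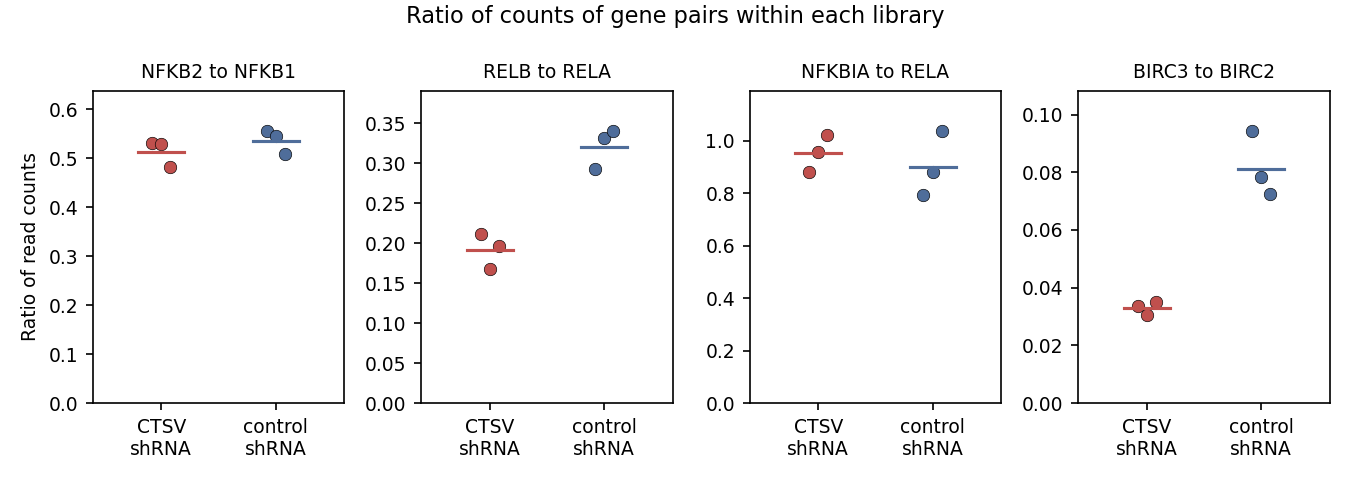
Ratio of raw read counts of 2 genes within each library, CTSV shRNA left (red) and control right (blue) in each panel. Points are libraries (n = 3 each) and lines are geometric means. RELB to RELA and BIRC3 to BIRC2 do not overlap between groups, and the other 2 ratios do.

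Of the 2 inhibitor genes, NFKBIE had the more negative fold change. NFKBIA (ENSG00000100906, chromosome 14, 35401511 to 35404749, minus strand) encodes IkB-alpha, the inhibitor most rapidly resynthesised after NF-kB activation. It was at 37.1, 34.5 and 33.8 CPM in CTSV shRNA libraries and at 36.3, 45.7 and 43.1 CPM in control libraries. Control replicate 1 lay within the range of the CTSV shRNA libraries, and the log2 fold change was the smallest of the 10 with all 6 libraries, -0.25 (SE 0.0888, edgeR adjusted p = 0.0242). This call did not hold without control replicate 2 (adjusted p = 0.147) or 3 (0.0792), without CTSV shRNA replicate 2 (0.0754) or 3 (0.083), with DESeq2 (0.0507) or with offsets for transcript length and GC content (0.114). Over all 14 alternatives its adjusted p lay between 0.00379 and 0.64. NFKBIA to RELA was 0.881, 0.956 and 1.023 in CTSV shRNA libraries and 0.795, 0.881 and 1.036 in control libraries, a log2 difference of 0.08 (exact permutation p = 0.6 and adjusted 0.6) that turned to -0.005 without control replicate 1.

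NFKBIE (ENSG00000146232, chromosome 6, 44258166 to 44265788, minus strand) encodes IkB-epsilon, an inhibitor with slower feedback. It was at 4.54, 6.12 and 6.27 CPM in CTSV shRNA libraries, against 11.4, 10.7 and 11.2 CPM in control libraries. The control libraries lay close together and well above the others, and NFKBIE had a log2 fold change of -0.97 (SE 0.167, edgeR adjusted p = 1.12e-05), to 50.9% of the control level. The intervals of the 2 inhibitors did not meet, with 95% limits of -1.31 to -0.64 for NFKBIE and -0.43 to -0.07 for NFKBIA, though the difference itself was not tested. TNFAIP3 (ENSG00000118503, chromosome 6, 137867188 to 137883312, plus strand) encodes A20, which removes ubiquitin chains that signalling to NF-kB needs. Its level was 13.0, 15.7 and 17.6 CPM in CTSV shRNA libraries and 18.39, 23.1 and 20.1 CPM in control libraries. The groups nearly touched, and the log2 fold change was -0.41 (SE 0.123, edgeR adjusted p = 0.0071). Without CTSV shRNA replicate 1 (adjusted p = 0.0643) or control replicate 2 (0.0575) it was not called, and over the 14 alternatives its adjusted p lay between 0.00198 and 0.161. Where TNFAIP3 shares 95 exon bases with an antisense gene, AL357060.1, that gene had 71 counts over all 6 libraries.

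BIRC3 (ENSG00000023445, chromosome 11, 102317450 to 102339403, plus strand) encodes cIAP2, a ubiquitin ligase of the TNF receptor complex and a known NF-kB target. It was the least abundant of the 10, at 3.02, 2.73 and 3.08 CPM (50, 45 and 56 counts) in CTSV shRNA libraries, against 7.01, 5.17 and 4.92 CPM (125, 86 and 79 counts) in control libraries. The groups did not overlap, and the log2 fold change was -0.95 (SE 0.233, edgeR adjusted p = 0.00111), with the widest interval of the 10, -1.43 to -0.48. Its close relative BIRC2, which encodes cIAP1, begins 7807 bases downstream on the same strand, with no annotated gene between them, and moved the other way. BIRC2 was at 88.9 ± 0.814 CPM in CTSV shRNA libraries and 69.5 ± 4.36 CPM in control libraries (n = 3 each), a rise of 0.36 on the log2 scale (SE 0.0631, edgeR adjusted p = 1.98e-05). With the 1.2-fold limit BIRC2 was not called (glmTreat adjusted p = 0.109). BIRC3 stood to BIRC2 at 0.0337, 0.0307 and 0.0350 in CTSV shRNA libraries and at 0.0942, 0.0782 and 0.0725 in control libraries. That log2 difference of -1.30 had an exact permutation p of 0.1 and 0.2 after adjustment, with no overlap. The labels do not say how reads shared by these 2 similar genes were counted.

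ICAM1 (ENSG00000090339, chromosome 19, 10270835 to 10286615, plus strand) encodes the adhesion molecule to which leukocyte integrins bind. It was at 52.6, 53.1 and 50.7 CPM in CTSV shRNA libraries, against 102.4, 106.6 and 92.8 CPM in control libraries. The libraries of each group lay close together and far from the other group, which gave ICAM1 the smallest adjusted p of the 10 (log2 fold change -0.95, SE 0.0659, edgeR adjusted p = 3.17e-14). ICAM1 shares 815 exon bases with an antisense gene, AC011511.5, and strand use in counting is not stated, so reads of the 2 cannot be told apart. IL32 (ENSG00000008517, chromosome 16, 3065297 to 3082192, plus strand) encodes a proinflammatory cytokine made by lymphoid and epithelial cells. Its level was 23.9, 17.9 and 18.37 CPM in CTSV shRNA libraries, against 37.9, 40.6 and 34.7 CPM in control libraries, without overlap. IL32 had a log2 fold change of -0.91 (SE 0.105, edgeR adjusted p = 6.08e-09), to 53.2% of the control level. It shares 129 exon bases with RNU1-125P, a small nuclear RNA gene on the same strand, and reads there cannot be told apart.

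**Figure D3:**
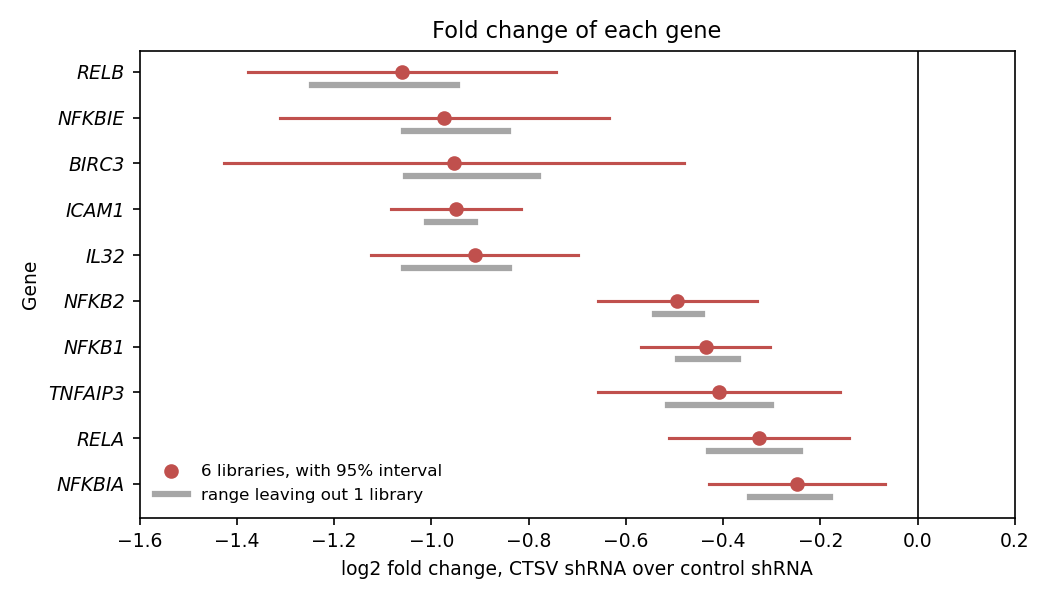
Log2 fold change (CTSV shRNA over control shRNA) of each gene from edgeR, ordered by size, with the 95% interval (red) and the range of values with 1 library left out (grey). RELB, NFKBIE, BIRC3, ICAM1 and IL32 lie between -1.06 and -0.91, and the other 5 between -0.49 and -0.25.

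The fold changes of the 10 fell into 2 ranges. RELB, NFKBIE, BIRC3, ICAM1 and IL32 lay between -1.06 and -0.91 and ranked 166 to 267 of 15968 genes from the most negative. The other 5 lay between -0.49 and -0.25, and NFKB2, the largest of them, ranked 1377. These ranges were drawn after the values were seen. The wide interval of BIRC3 reached into the range of the others. That of NFKBIE, with an upper limit of -0.64, met those of NFKB2 and TNFAIP3, each with a lower limit of -0.66. The more negative range held both ICAM1, among the most abundant of the 10, and BIRC3, the least abundant, and subunit and inhibitor genes stood in both ranges.

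Levels were compared between genes after division by the length of the longest transcript in GENCODE v29, in CPM per kilobase. In CTSV shRNA libraries NFKBIA was highest at 22.5 ± 1.12, followed by NFKB1 at 17.01 ± 0.454, ICAM1 at 16.0 ± 0.394 and IL32 at 14.55 ± 2.43 CPM per kilobase (n = 3 each). In control libraries ICAM1 was highest at 30.9 ± 2.18, followed by IL32 at 27.3 ± 2.13, NFKBIA at 26.8 ± 3.14 and NFKB1 at 23.0 ± 1.99 CPM per kilobase (n = 3 each). The libraries of neighbours in that control order overlapped. NFKBIA thus had rank 1 in CTSV shRNA libraries and rank 3 in control libraries, while ICAM1 had ranks 3 and 1. RELA and NFKB2 followed in both groups, at 11.6 ± 1.45 and 10.5 ± 0.658 CPM per kilobase in CTSV shRNA libraries and at 14.6 ± 1.63 and 14.7 ± 0.744 in control libraries, and their libraries overlapped within each group. At the low end, TNFAIP3, RELB and NFKBIE lay between 2.19 and 3.26 in CTSV shRNA libraries and between 4.30 and 6.49 in control libraries. BIRC3 was last at 0.567 ± 0.0366 CPM per kilobase in CTSV shRNA libraries and 1.10 ± 0.219 in control libraries (n = 3 each), and its libraries did not overlap those of any other gene. With merged exon length instead, IL32 dropped to rank 6 in CTSV shRNA libraries and rank 4 in control libraries; its merged exons hold 3209 bases and its longest transcript 1381. By that length NFKBIA had rank 1 in CTSV shRNA libraries and rank 2 in control libraries, ICAM1 had ranks 2 and 1, and NFKB2 lay above RELA in control libraries without overlap, at 10.6 to 11.7 against 7.62 to 9.50 CPM per kilobase.

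Around these genes, the rest of the pathway moved in both directions. Other Rel and IkB family genes did not fall together. NFKBIZ, which encodes the nuclear regulator IkB-zeta, was at 130.3 ± 1.6 CPM in CTSV shRNA libraries and 92.9 ± 3.51 CPM in control libraries (n = 3 each) and rose by 0.49 on the log2 scale (SE 0.0557, edgeR adjusted p = 5.46e-09). BCL3, a nuclear IkB protein gene, and NFKBIB, the IkB-beta gene, fell by 0.37 and 0.28. NFKBIB was not called without control replicate 2 (adjusted p = 0.166), without CTSV shRNA replicate 2 (0.11) or with length and GC offsets (0.0781). REL, the remaining subunit gene, was not called, at 21.7 ± 0.450 CPM in CTSV shRNA libraries and 19.0 ± 1.13 CPM in control libraries (n = 3 each; log2 fold change 0.19, edgeR adjusted p = 0.162). The list had 1 rise, 2 falls and 2 genes not called, with a median of 0.19 beside 0.02 for all genes tested.

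Of 24 receptors and adaptors, 20 were tested, with 7 falls, 4 rises and 9 genes not called, and the median was -0.07. The receptor genes TNFRSF12A, for the TWEAK receptor, and TNFRSF1A, for the main TNF receptor, had log2 fold changes of -0.85 and -0.53. IRAK2, a kinase gene of interleukin-1 and Toll-like receptor signalling, and TRAF3, a brake on the non-canonical branch, had -0.71 and -0.53. The 4 that rose, 3 of them outside the naming rule and named after their values were seen, were BIRC2 (0.36), the interleukin-1 receptor gene IL1R1 (0.37) and the adaptor genes TRAF1 (0.69) and TRAF6 (0.41). TRAF1, a known NF-kB target, was at 13.0 ± 0.884 CPM in CTSV shRNA libraries and 8.05 ± 1.63 CPM in control libraries (n = 3 each). Of 18 kinases and ubiquitin ligases, 4 fell (22.2%), 2 rose (11.1%) and 12 were not called, and the median was -0.08. IKBKB, which encodes a kinase that phosphorylates IkB-alpha, rose by 0.33 but was not called with the 1.2-fold limit (glmTreat adjusted p = 0.255). CHUK, the gene of its partner kinase, named after its value was seen, fell by 0.23 (edgeR adjusted p = 0.0032). TAB3, a gene for an adaptor of the kinase TAK1, rose by 0.41. The ubiquitin-conjugating enzyme gene UBE2N and RBCK1, a subunit gene of the linear ubiquitin ligase, had log2 fold changes of -0.44 and -0.42.

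The 9 tested negative regulators other than TNFAIP3 had 4 falls (44.4%, beside 21.6% of all genes tested), 0 rises and 5 genes not called. Their median was -0.13. TNIP1, which encodes a partner of A20, was at 32.5 ± 2.38 CPM in CTSV shRNA libraries and 53.5 ± 1.40 CPM in control libraries (n = 3 each), and its log2 fold change was -0.72 (SE 0.0807, edgeR adjusted p = 3.82e-09). RNF11, another A20 partner gene, had -0.51, and TAX1BP1 and ITCH, 2 more, each had -0.13. The TAX1BP1 call was lost without control replicate 3 or CTSV shRNA replicate 1 or 2 (adjusted p up to 0.0868), and the ITCH call without any 1 library other than control replicate 2 (up to 0.143). The deubiquitinase genes CYLD and OTULIN were not called, at -0.13 and 0.04.

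**Figure D4:**
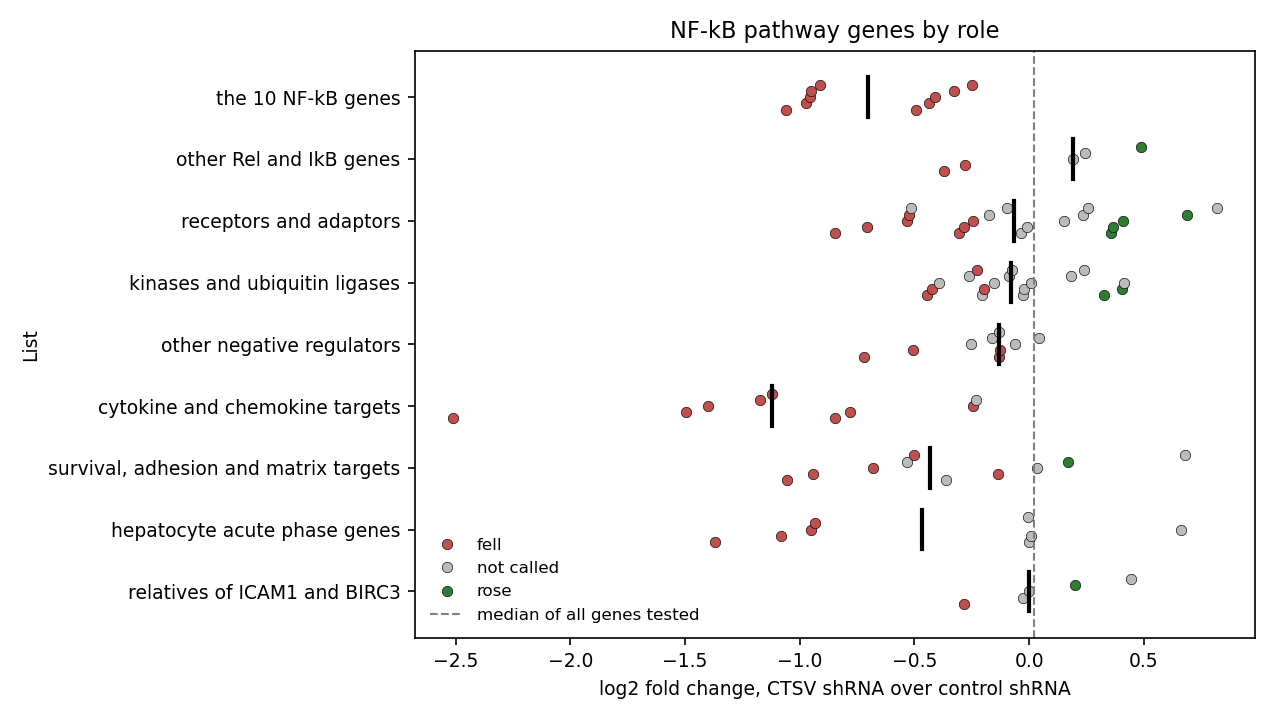
Log2 fold change (CTSV shRNA over control shRNA) of each tested gene of the 10-gene set and of 8 lists. The lists hold pathway genes, acute phase genes and relatives of ICAM1 and BIRC3. Genes that fell are in red, genes that rose in green and genes not called in grey. Black bars are list medians, and the dashed line is the median of all genes tested, 0.02. Chemokine targets have the most negative median, -1.12, and receptors and kinases scatter on both sides of 0.

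Known NF-kB target genes for secreted signals lay mostly on the low side. The 9 tested cytokine and chemokine genes had 8 falls (88.9%, beside 21.6% of all genes tested), 0 rises and 1 gene not called. Their median was -1.12. CXCL8 was at 7.59 ± 1.29 CPM in CTSV shRNA libraries and 43.2 ± 3.0 CPM in control libraries (n = 3 each), a larger fold than for any of the 10 genes, and CXCL5, CCL20 and CXCL1 had log2 fold changes of -1.50, -1.40 and -1.12. A further 6 genes of that list, among them TNF, IL6 and IL1B, had too few counts to be tested, with 0 to 8 counts per library for those 3. The 10 tested survival, adhesion and matrix genes had 5 falls, 1 rise and 4 genes not called (median -0.43). The stress gene GADD45B (-1.05), the early response gene IER3 (-0.94), the syndecan gene SDC4 (-0.68) and the anti-apoptotic gene BCL2L1 (-0.50) fell. CFLAR, which encodes the caspase-8 inhibitor c-FLIP, was the 1 that rose, by 0.17, and is named after its value was seen.

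The 8 tested acute phase genes of hepatocytes had 4 falls, 0 rises and 4 genes not called (median -0.47). The orosomucoid genes ORM1 and ORM2 had log2 fold changes of -0.95 and -0.93, the haptoglobin gene HP -1.08 and the hepcidin gene HAMP -1.37. ORM1 and ORM2 are near copies of each other, and the split of their reads is uncertain. The complement gene C3 and the fibrinogen gene FGB, both far more abundant, were not called, at 931.5 ± 14.5 and 1470 ± 21.8 CPM in CTSV shRNA libraries and at 933.2 ± 26.8 and 1469 ± 30.3 CPM in control libraries (n = 3 each). Among 5 tested relatives of ICAM1 and BIRC3, the X-linked inhibitor of apoptosis gene XIAP fell by 0.28 and BIRC6 rose by 0.20, and 3, the survivin gene BIRC5 with ICAM2 and ICAM5, were not called. BIRC6 was 0.04 with length and GC offsets (adjusted p = 0.588) and lost its call without control replicate 2 (0.0841).

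The 8 lists include acute phase genes and relatives of ICAM1 and BIRC3 as well as genes of the pathway. Over these lists, 84 of 113 genes were tested, of which 35 fell (41.7%), 9 rose (10.7%) and 40 were not called. The pathway annotation in the deposited table ties 73 gene names to NF-kappa B signalling, 8 of the 10 among them. Without those 8, 56 were tested, and 16 fell (28.6%), 12 rose (21.4%) and 28 were not called, with a median of -0.04. Among all genes tested 21.6% fell and 18.7% rose, and among protein-coding genes 26.2% fell and 18.7% rose.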

How the data were processed

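Per-gene read counts of 6 libraries were used as deposited, raw whole numbers made by the authors. HISAT2, StringTie and SAMtools with hg38 are named per the submitters' processing notes, without versions, while read counter, annotation and strand use are not stated there. The authors' deposited log2 fold changes run control over knockdown, and their deposited p-values and adjusted p-values come from a test that no label names. Of 28915 entries, 1521 copies of a name were removed. The test was edgeR 4.0.16 (quasi-likelihood, TMM, filterByExpr, no covariate) over all 15968 genes passing the filter, called at a Benjamini-Hochberg adjusted p under 0.05. It was also run on simulated data with 200 genes changed. That is a far smaller share than was called in these libraries, so the simulation does not cover their setting. The biological coefficient of variation was 6.87%. SEs are the fold change over the root of the F statistic. Transcript lengths and GC content are from GENCODE v29. Named genes are all members, CTSV, CXCL8, BIRC2 and up to 4 called genes per list with the smallest adjusted p. Other genes with values in the text (such as REL, TRAF1, C3, FGB, CYLD, OTULIN and LYZ) were named after their values were seen. Members and lists were chosen with earlier results of these data known. Alternatives were RLE factors, other count filters, DESeq2 1.42.0, a block on replicate number, mitochondrial genes left out, testing against 1.2-fold (glmTreat), length and GC offsets, and each library left out. The merged exon length, the authors' p-values and the pathway annotation were added after seeing the data.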

Additional observations from a re-analysis of the deposited data

How the results depend on the processing

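The count of members that fell was 10 with RLE factors, without a count filter, at a mean CPM of at least 1, with mitochondrial genes left out and with the replicate block, 9 with DESeq2 and with length and GC offsets, 7 with the 1.2-fold limit, and 8 to 10 with 1 library left out. None rose in any of them. The 1.2-fold limit left 1272 falls and 1393 rises among all genes, and 21 falls and 3 rises in the 8 lists. The replicate numbers share only a number: same-numbered libraries had correlations of -0.012, -0.003 and 0.021 between their deviations from the group means. The block gave 3490 falls and 2996 rises over all genes, against 3451 and 2982 without it, and changed no call of a named gene. Leaving out 1 library moved the NFKBIA to RELA log2 difference between -0.005 and 0.186, through 0. For the 40 named genes other than CTSV, 528 of 560 values under alternatives kept direction and call, 32 lost the call and 0 reversed. The causes were not tested. CTSV stayed called in all, between -1.40 and -1.30. BIRC3 had 45 to 125 counts per library and the widest interval of the 10, and kept its call in all 14 alternatives.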
